A study of Rattus norvegicus with 18 samples.

Results

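Branched-chain amino acid catabolism was followed through 9 genes in rat hindlimb muscle labelled soleus: Bcat2, Bckdha, Bckdhb, Dbt, Bckdk, Ppm1k, Ivd, Mccc1 and Hibadh. They were chosen by gene symbol, as 9 of the 14217 genes that a single-gene probe set of the array names, and 13 of the 31042 probe sets tested list one of them alone. Each gene was read at its main probe set, the one with the highest mean over the 18 arrays, and 6 of the 9 genes have no other. Ppm1k was included because its level was lower on the ligated side of rats with reduced kidney mass. That contrast is therefore given below as a description without a test, and differences of Ppm1k that include SNX levels are described without a p. Its difference between the limbs of sham rats was tested, with a spread estimated over all 4 groups. The samples came from male rats with chronic kidney disease induced by 5/6 nephrectomy (SNX, 5 rats) or with a sham operation (4 rats). In both, 8 weeks after the operation, a stretch of the right femoral artery was tied off and removed, and 24 hours later the soleus of both limbs was taken. The groups are therefore SNX right (ligated), SNX left (contralateral), sham right (ligated) and sham left (contralateral), with 1 array per limb and no unoperated animals. The source labels name every SNX array ischemic and every sham array nonischemic whichever the limb, which conflicts with the design text, so groups are named here by operation and side.

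Leucine, isoleucine and valine are broken down in mitochondria, and skeletal muscle is a main site of the opening step. Bcat2, the mitochondrial aminotransferase, turns them into branched-chain keto acids. The branched-chain keto acid dehydrogenase complex then commits these acids to oxidation: Bckdha and Bckdhb encode the subunits of its E1 decarboxylase and Dbt its E2 core. The kinase Bckdk phosphorylates E1 and switches the complex off, and the phosphatase Ppm1k removes that phosphate and switches it on. Downstream, Ivd (isovaleryl-CoA dehydrogenase) and Mccc1 (the biotin-carrying subunit of methylcrotonyl-CoA carboxylase) act on leucine products, and Hibadh (3-hydroxyisobutyrate dehydrogenase) acts on a valine product.

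Values are log2 levels as deposited, so a difference of 1 is a doubling, and levels are compared only within a probe set. All 9 main probe sets were well lit, with means of 8.22 (Bcat2) to 12.45 (Hibadh) against array medians of 3.22 to 3.37. The 4 other probe sets, 1 each for Bckdha and Dbt and 2 for Ppm1k, had means of 2.23 to 3.06, below the array medians, and gave no usable level. Soleus is known as a mainly slow-twitch muscle, and the markers did not bear out that label on all arrays. The mean of 7 slow fibre genes ran from 11.1 to 14.9, with Tnnt1 (slow troponin T) between 9.77 and 14.87. The mean of 7 fast fibre genes ran from 14.6 to 15.0, and Myh4, the fast IIb myosin, lay between 14.70 and 15.66 on all 18 arrays, where the highest value of any probe set was 15.9. The right limb arrays of SNX rat 49 and sham rat 17 stood apart: their correlation with all other arrays averaged 0.980 and 0.978, against 0.987 to 0.992 for the remaining 16. These were also the arrays with the highest mean of 7 macrophage genes, 7.28 in SNX rat 49 and 7.86 in sham rat 17, and the differences that shift most without these rats are given in both ways. In whole muscle, fewer cells of a type and less RNA per cell cannot be told apart.

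Promoters of 4 genes are shown, those of Bcat2, Dbt and Ivd, which stood higher in SNX rats, and that of Bckdk, which stood level in all 4 groups. They are RefSeq sequences of the rat build GRCr8 from 250 bases before to 50 bases after the annotated start, and 7 of the 9 genes have an entry (all but Ppm1k and Bckdha). Capitals mark the GC box GGGCGG and the CCAAT box CCAAT on either strand.
Bcat2, chr1:105178889-105179188, + strand: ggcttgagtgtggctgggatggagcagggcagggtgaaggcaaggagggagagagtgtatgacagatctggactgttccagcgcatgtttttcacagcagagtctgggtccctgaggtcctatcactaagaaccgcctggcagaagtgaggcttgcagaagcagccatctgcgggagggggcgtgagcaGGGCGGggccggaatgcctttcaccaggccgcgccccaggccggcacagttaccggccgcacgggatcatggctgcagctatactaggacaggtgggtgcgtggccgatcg
Dbt, chr2:207166410-207166709, + strand: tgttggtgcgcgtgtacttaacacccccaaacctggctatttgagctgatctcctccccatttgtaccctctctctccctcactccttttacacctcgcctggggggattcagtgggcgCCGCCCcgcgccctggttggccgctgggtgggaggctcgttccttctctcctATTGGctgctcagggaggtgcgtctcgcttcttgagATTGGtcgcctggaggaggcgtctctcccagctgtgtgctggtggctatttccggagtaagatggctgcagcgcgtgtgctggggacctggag
Ivd, chr3:126305334-126305633, + strand: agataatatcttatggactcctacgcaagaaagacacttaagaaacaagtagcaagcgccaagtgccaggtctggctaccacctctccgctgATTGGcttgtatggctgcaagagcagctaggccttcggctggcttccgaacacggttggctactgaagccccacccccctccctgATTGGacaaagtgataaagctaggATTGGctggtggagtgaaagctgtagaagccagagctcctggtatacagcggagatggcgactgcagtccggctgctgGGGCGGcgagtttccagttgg
Bckdk, chr1:191945559-191945858, + strand: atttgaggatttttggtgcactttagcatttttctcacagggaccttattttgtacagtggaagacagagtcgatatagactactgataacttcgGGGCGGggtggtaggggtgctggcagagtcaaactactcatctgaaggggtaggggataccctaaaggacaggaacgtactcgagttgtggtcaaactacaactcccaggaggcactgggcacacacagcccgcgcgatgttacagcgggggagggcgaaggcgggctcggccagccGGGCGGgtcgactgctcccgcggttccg

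The GC box was found in all 7 promoters, with 1 match in Bcat2, 1 in Dbt, 1 in Ivd and 2 in Bckdk. It is present in 33.1% of the 33469 rat promoters of the same length. The CCAAT box was matched 2 times in Dbt and 3 times in Ivd, each as ATTGG, and was absent from the windows of Bcat2 and Bckdk. Of all promoters 37.5% hold it. An estrogen-related receptor element (AAGGTCA) and an E-box (CACGTG), found in 4.61% and 6.42% of promoters, were in none of the 7 windows. Matches of letters are a description of these windows only.

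SNX rats had higher mean levels than sham rats for 8 of the 9, and Bcat2, Dbt, Ppm1k and Ivd were 1.53 to 1.93 times as high when the limbs of each rat were averaged. For these 4 genes the limb averages of the 5 SNX rats all lay above those of the 4 sham rats. Ppm1k apart this was 3 of 8 genes, against 1.28% of all probe sets. Bckdk, the inhibitory kinase, had a difference near 0. None of the 8 genes tested passed the adjusted threshold, which 0.0193% of all probe sets did, and 0% with the rat as a block. Ppm1k is described only, since its average uses the SNX arrays by which it was picked and its spread differed between SNX right limbs (SD 0.66) and SNX left limbs (SD 0.36).

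**Figure D1:**
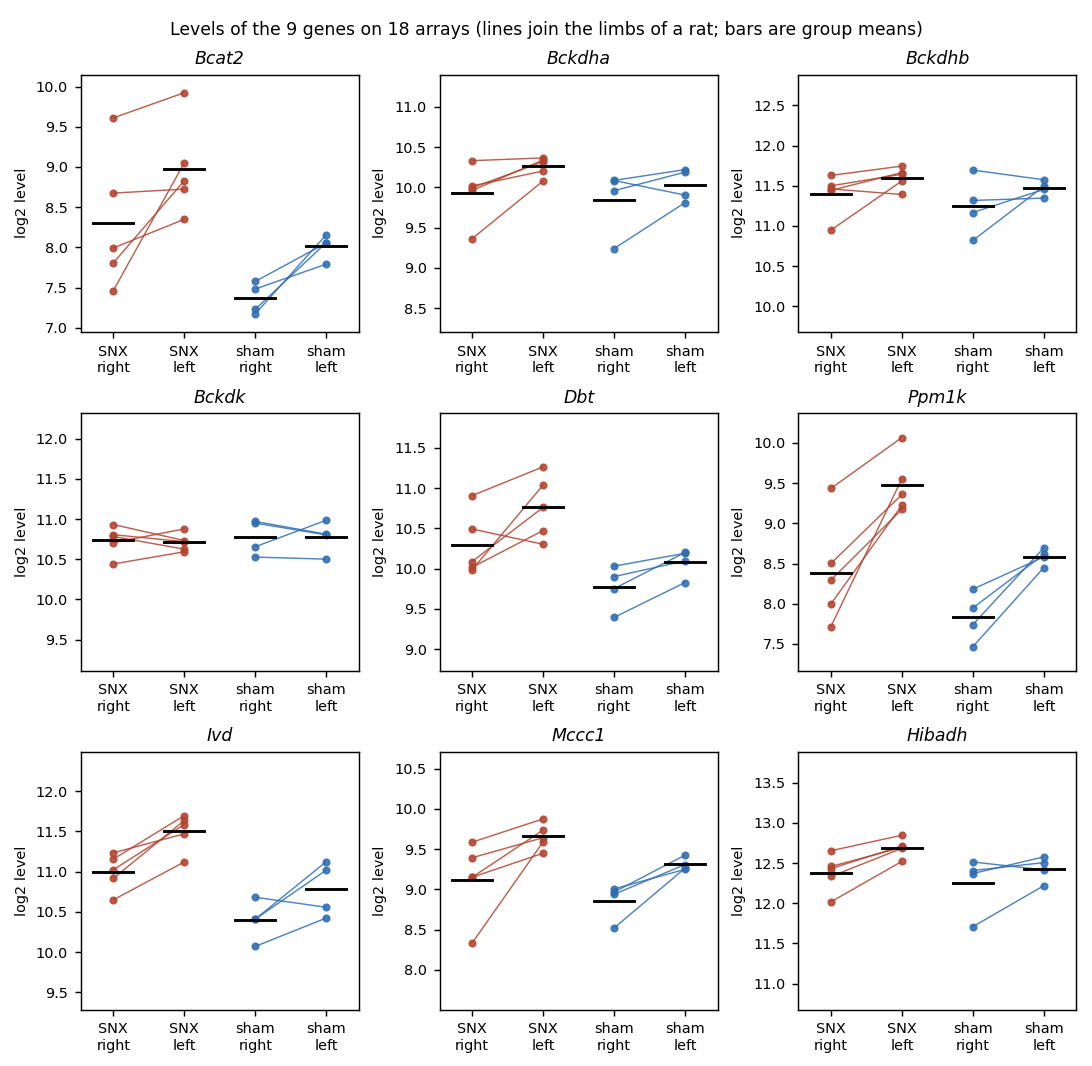
Log2 level of each of the 9 genes in the 4 groups, 1 point per array, with lines joining the limbs of a rat and bars at group means. The means of Bcat2, Dbt, Ppm1k and Ivd lie higher in SNX than in sham rats on both sides, and Bckdk is level, with group means of 10.71 to 10.78.

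Bcat2, which feeds the whole pathway, measured 7.99, 9.61, 8.68, 7.81 and 7.46 in right limbs of SNX rats 12, 18, 20, 37 and 49, against 7.23, 7.58, 7.48 and 7.18 in those of sham rats 11, 13, 15 and 17. In left limbs it measured 8.35, 9.92, 8.73, 8.83 and 9.05 in the same SNX rats, against 8.06, 8.05, 7.79 and 8.16 in the sham rats. The left limbs did not overlap, the right limbs overlapped through SNX rat 49, and rat 18 was highest on both sides. Limb averages were 8.64 ± 0.66 in SNX rats (SD, n = 5) and 7.69 ± 0.08 in sham rats (SD, n = 4), a difference of 0.95 ± 0.26 (SE) with a limma adjusted p of 0.17, or 0.399 with the rat as a block.

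The E1 subunits lay close together in the operations. Bckdha averaged 10.10 ± 0.23 over the limbs of SNX rats and 9.94 ± 0.28 over those of sham rats, and Bckdhb 11.50 ± 0.16 and 11.36 ± 0.20. Their differences of 0.16 ± 0.13 and 0.14 ± 0.11 (SE) were within the spread between rats, with overlapping ranges. Without sham rat 17 they were 0.02 for Bckdha and 0.07 for Bckdhb, without sham rat 15 that of Bckdhb was 0.23, and without SNX rat 18 they were 0.10 and 0.09. Without SNX rat 49 that of Bckdha was 0.26.

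Dbt, the E2 core of the same complex, measured 10.02, 10.91, 10.49, 10.09 and 9.98 in right limbs of SNX rats 12, 18, 20, 37 and 49, against 10.03, 9.75, 9.90 and 9.39 in those of sham rats 11, 13, 15 and 17. In left limbs it measured 10.47, 11.26, 10.30, 10.76 and 11.04 in the SNX rats, against 10.19, 10.20, 10.10 and 9.83 in the sham rats. Left limbs were separate, and in right limbs sham rat 11 reached into the SNX range. The difference in limb averages was 0.61 ± 0.15 (SE, limma adjusted p = 0.145, or 0.37 with the rat as a block).

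Bckdk, the kinase that switches the complex off, averaged 10.72 ± 0.12 in SNX rats and 10.78 ± 0.18 in sham rats (SD), a difference of -0.05 with a 95% interval of -0.23 to 0.12. Ppm1k, the phosphatase that switches it on, measured 8.29, 9.43, 8.50, 8.0 and 7.72 in right limbs of SNX rats 12, 18, 20, 37 and 49, against 7.95, 7.74, 8.18 and 7.47 in those of sham rats 11, 13, 15 and 17. In left limbs it measured 9.17, 10.07, 9.36, 9.22 and 9.55 in the SNX rats, against 8.62, 8.70, 8.58 and 8.45 in the sham rats. Every SNX left limb lay above every sham left limb, whereas the right limbs overlapped. Limb averages of Ppm1k were 8.93 ± 0.47 in SNX rats and 8.21 ± 0.18 in sham rats (SD), a difference of 0.72 ± 0.20 (SE), given as a description.

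Among the downstream enzymes, Ivd came closest to the threshold. It measured 11.02, 11.23, 10.65, 11.16 and 10.92 in right limbs of SNX rats 12, 18, 20, 37 and 49, against 10.68, 10.41, 10.41 and 10.07 in those of sham rats 11, 13, 15 and 17. In left limbs it measured 11.59, 11.47, 11.12, 11.70 and 11.64 in the SNX rats, against 10.56, 11.13, 11.02 and 10.42 in the sham rats. A single SNX array on each side, that of rat 20, lay within the sham range, and the others lay above it. The averages were 11.25 ± 0.21 in SNX rats and 10.59 ± 0.23 in sham rats (SD), a difference of 0.66 ± 0.12 (SE) with an unadjusted p of 5.96e-05 and a limma adjusted p of 0.0706. With the rat as a block the adjusted p was 0.233, and without sham rat 11 in the unblocked fit it was 0.0381. Mccc1 was higher by 0.31 ± 0.13 and Hibadh by 0.20 ± 0.11 (SE), with overlapping averages. Their limma adjusted p was 0.287 and 0.339, or 0.468 and 0.484 with the rat as a block. The difference of Hibadh was 0.07 without sham rat 17.

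**Figure D2:**
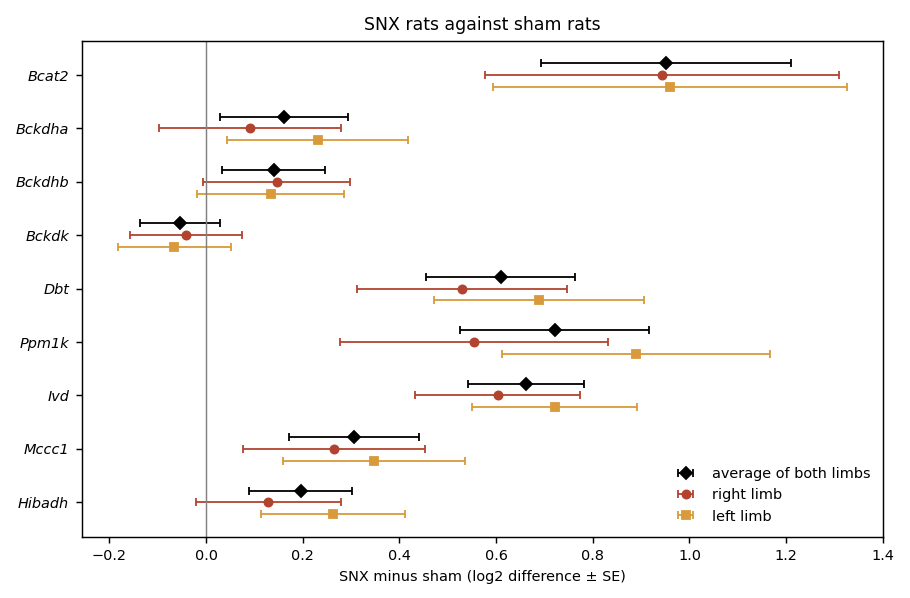
SNX minus sham log2 difference of each of the 9 genes by limb and averaged over the limbs, with SE from the limma fit as error bars. The averaged difference runs from -0.05 (Bckdk) to 0.95 (Bcat2), and Ppm1k is 0.89 in left and 0.55 in right limbs.

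At an unadjusted p under 0.05 the averaged difference took in 4 of the 8 genes other than Ppm1k, all higher in SNX rats, against 11.8% of all probe sets in that direction. With the rat as a block it took in 3 of 8, against 7.2%. The median difference of these 8 genes was 0.25, against 0.02 over all named genes, of which 60.6% lay above 0. Without SNX rat 49 and sham rat 17 the differences were 1.04 for Bcat2, 0.51 for Dbt, 0.71 for Ppm1k and 0.54 for Ivd, and again none passed. Over all alternatives they ran from 0.67 to 1.07 for Bcat2, 0.47 to 0.68 for Dbt and 0.52 to 0.80 for Ppm1k. The lowest value of each of these genes was the one without SNX rat 18. That of Ivd ran from 0.54 to 0.75.

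The same comparison was made in each limb alone. In the contralateral left limbs Bcat2, Dbt and Mccc1 lay higher in every SNX rat than in every sham rat, 3 of the 8 genes other than Ppm1k against 1.04% of all probe sets. In the ligated right limbs none of the 8 was separate in this way, against 7.77% of all probe sets. The left limb differences were 0.96 for Bcat2, 0.69 for Dbt, 0.72 for Ivd and, as a description, 0.89 for Ppm1k. The right limb differences were 0.94 for Bcat2, 0.53 for Dbt, 0.60 for Ivd and, as a description, 0.55 for Ppm1k. Without SNX rat 18 the right limb differences were 0.62 for Bcat2 and 0.29 for Ppm1k. The right limb differences of Bckdha (0.09), Bckdhb (0.15), Hibadh (0.13) and Mccc1 (0.26) also hung on single rats, and without sham rat 17 they were -0.11, 0.00, -0.05 and 0.15. Without SNX rat 18 they were -0.01, 0.09, 0.06 and 0.15, and without SNX rat 49 they were 0.23, 0.26, 0.22 and 0.46. Without sham rat 15 those of Bckdha and Bckdhb were 0.17 and 0.29, and without sham rat 11 those of Bckdha and Hibadh were 0.17 and 0.22. None of the 8 passed the adjusted threshold in either limb, where 0.00644% (left) and 0% (right) of probe sets did, and at an unadjusted limma p under 0.05 it was 3 of 8 genes in left limbs and 3 of 8 in right limbs, all higher, against 3.31% and 6.52% of probe sets.

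Other cells and the mitochondrial compartment were read beside this comparison. The mean of 10 mitochondrial genes outside the pathway, of 12 listed, ran from 13.23 to 13.48 over the limb averages of SNX rats and from 13.15 to 13.45 over those of sham rats and the ranges overlapped. Its median difference was 0.04, and 8 of its 10 genes lay above 0. Among non-muscle markers, none of which passed the adjusted threshold, 5 of 5 fibroblast genes, all 4 endothelial genes measured of 5 listed and 7 of 7 macrophage genes had negative SNX minus sham differences. The fibroblast list averaged 10.45 to 10.73 in SNX rats and 10.70 to 11.62 in sham rats, the macrophage list 4.51 to 5.78 and 4.89 to 6.63, and the adipocyte list 5.59 to 6.30 and 6.12 to 7.56. These ranges overlapped, with the SNX rats at the low end. Schwann cell genes, 3 measured of 5 listed, averaged 5.80 to 6.81 in SNX rats and 6.97 to 8.34 in sham rats, without overlap. The slow fibre list differed in sign between limbs, with no gene past the threshold: SNX minus sham was below 0 for 7 of 7 genes in right limbs (median -0.52) and above 0 for 7 of 7 in left limbs (median 0.20). Of the fast fibre list, 5 of 7 genes had averaged differences above 0, with a median of 0.03. Neutrophil genes averaged 3.38 to 4.23 and 3.49 to 5.36, and Lep, Sox10 and Cxcr2 stayed between 2.07 and 2.29 on all 18 arrays, below the array medians. The part of these cells in the SNX difference was not tested.

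Ligation was tested in sham rats, which were not part of the contrast by which Ppm1k was picked. There 8 of the 9 genes averaged less in right than in left limbs, with the widest differences in Ppm1k and Bcat2. Ppm1k was lower by 0.75 on the log2 scale, the left limb being 1.68 times the right, and in 4 of 4 rats. Bcat2, Dbt and Mccc1 were also lower on the right in all 4 rats, so 4 of 9 genes did this, against 23.3% of all probe sets. None of the 9 passed the adjusted threshold, which 0.148% of all probe sets did without the block and 1.8% with it.

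The sham values of Ppm1k given above place every right limb (7.47 to 8.18) below every left limb (8.45 to 8.70). Its limma adjusted p was 0.311, or 0.108 with the rat as a block, and the 95% interval of the difference ran from -1.37 to -0.13. Bcat2 was likewise separate, with 7.18 to 7.58 in right and 7.79 to 8.16 in left limbs. Its difference was -0.65 ± 0.39 (SE), with a limma adjusted p of 0.497, or 0.262 with the rat as a block. That SE takes its spread from all 4 groups, and within the 4 sham rats the difference of Bcat2 had an SD of 0.31. In a limma fit of only the sham arrays its adjusted p was 0.127. Mccc1 measured 9.0, 8.94, 8.97 and 8.52 in the right limbs of rats 11, 13, 15 and 17, against 9.25, 9.31, 9.42 and 9.26 in their left limbs. Its difference was -0.45 ± 0.20 (SE, limma adjusted p = 0.375, or 0.168 with the rat as a block). Again the sides did not overlap, although rat 17 was well below the other right limbs. Without rat 17 the differences were -0.54 for Bcat2 and -0.36 for Mccc1. Such separation of sides was found for 3 of 9 genes, against 5.4% of all probe sets.

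Dbt differed by -0.31 ± 0.23 and Ivd by -0.39 ± 0.18 (SE), Ivd being higher on the right in rat 11 only. Bckdhb, Bckdha and Hibadh differed by -0.22, -0.19 and -0.18, each lower in 3 of 4 rats. Without rat 17 they were -0.07, -0.06 and -0.07. Without rat 15 that of Bckdhb was -0.33, and without rat 11 those of Bckdha and Hibadh were -0.31 and -0.27. Bckdk measured 10.95, 10.53, 10.97 and 10.66 in the right limbs of sham rats 11, 13, 15 and 17, against 10.80, 10.50, 10.81 and 10.98 in their left limbs, with a mean difference of 0.00 and a 95% interval of -0.26 to 0.26. The direction of the Bckdk mean is not fixed, being -0.01 when arrays were centred on their medians. At an unadjusted limma p under 0.05, 3 of the 9 genes (Ppm1k, Ivd and Mccc1) were lower, against 6.82% of all probe sets in that direction. Which genes these are depends on the fit, which takes its spread from all 4 groups. In a limma fit of only the sham arrays the unadjusted p was 0.0893 for Ivd and 0.000829 for Bcat2. The median of the 9 genes was -0.31, against -0.02 over all named genes, of which 60.9% lay below 0.

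In SNX rats Ppm1k was 0.88 (rat 12), 0.63 (rat 18), 0.86 (rat 20), 1.23 (rat 37) and 1.84 (rat 49) lower in the right than in the left limb on the log2 scale. Its mean right minus left difference was -1.09 ± 0.47 (SD, n = 5), the left limb being 2.12 times the right, and -0.90 without rat 49. The level order of Ppm1k over the groups was SNX left (9.48 ± 0.36), sham left (8.59 ± 0.10), SNX right (8.39 ± 0.66) and sham right (7.83 ± 0.30, SD). SNX left lay above sham left in every rat, the ligated SNX muscle spanned the whole range of the contralateral sham muscle, and SNX right overlapped sham right. These values chose the gene and support nothing further.

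The remaining genes in SNX rats, given in the same way without a test, had mean right minus left differences of -0.67 for Bcat2, -0.54 for Mccc1, -0.51 for Ivd, -0.47 for Dbt, -0.33 for Bckdha, -0.31 for Hibadh, -0.20 for Bckdhb and 0.02 for Bckdk. Without rat 49 these were -0.44, -0.36, -0.45, -0.32, -0.23, -0.27, -0.10 and 0.07 for the same genes in the same order. Of these 8 genes 5 were lower on the right in all 5 rats, where 5.64% of all probe sets were, and Bcat2 and Mccc1 were so in all 9 rats of both operations, where 2.73% were. Nothing is read from these counts. They use the contrast by which Ppm1k was picked, and the 9 genes were chosen with earlier results of these data known. No gene of the 9 had every SNX right limb below every SNX left limb, where 0.577% of all probe sets did.

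**Figure D3:**
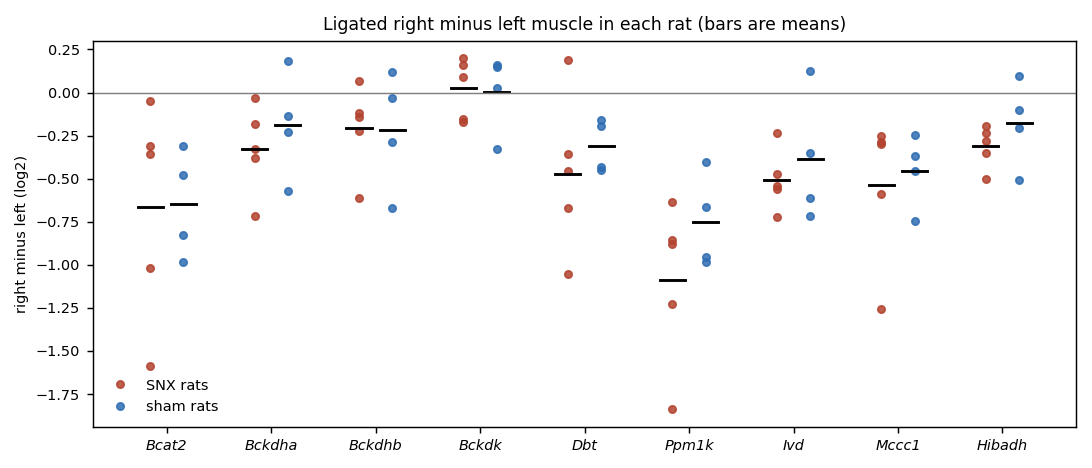
Right minus left log2 difference of each of the 9 genes in each rat, SNX rats beside sham rats, with the group mean. Ppm1k lies below 0 in all 9 rats, Bckdk lies around 0, and rat 49 is the lowest SNX rat for 8 of the 9 genes.

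Whether the ligation differences were alike in SNX and sham rats was tested as a difference of differences. For Ppm1k the SNX minus sham difference of the right minus left values was -0.34 ± 0.39 (SE), given without a p because it contains the values that picked the gene. It was -0.15 when SNX rat 49 was left out and -0.22 when sham rat 15 was. It was wider, -0.40, without sham rat 13 and -0.39 without SNX rat 12, and over all alternatives it ran from -0.45 to -0.15. Over the other 8 genes this difference ran from -0.16 to 0.02, and none had an unadjusted limma p under 0.05, against 1.41% of all probe sets. It too contains their SNX right minus left values. None of the 31042 probe sets passed the adjusted threshold here (0%).

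The mean of the 7 macrophage genes was higher on the ligated side in 8 of 9 rats, though none of the 7 passed the adjusted threshold. In right limbs it was 4.5 to 7.28 in SNX rats and 5.12 to 7.86 in sham rats, and in left limbs 3.98 to 4.67 and 4.66 to 5.49. Within rats the right minus left difference of that mean was largest in SNX rat 49 (3.0) and sham rat 17 (2.46), which also had the lowest right minus left value for 8 and 7 of the 9 genes within their groups. In SNX rat 20 the macrophage mean was 0.17 lower on the right, and Ppm1k was 0.86 lower there too. The 10 mitochondrial genes had a median right minus left difference of -0.11 in SNX rats and -0.10 in sham rats, against -0.47 and -0.31 for the 9 genes. Without rats 49 and 17 the difference of Ppm1k in sham rats was -0.67. Other lists were read in the same way, as medians, and of these only the endothelial list had genes past the adjusted threshold. In SNX rats right minus left was above 0 for 5 of 5 fibroblast genes (median 0.66) and 3 of 3 Schwann cell genes (1.58), and below 0 for 7 of 7 slow fibre genes (-0.33) and 7 of 7 fast fibre genes (-0.04). In sham rats it was above 0 for 4 of 5 fibroblast genes (0.21), 2 of 3 Schwann cell genes (0.62) and 7 of 7 slow fibre genes (0.42), and below 0 for 6 of 7 fast fibre genes (-0.09). The slow fibre list thus lay on opposite sides of 0 in the operations. Endothelial genes had medians of -0.05 in SNX and 0.30 in sham rats, neutrophil genes 0.13 and 0.25, and adipocyte genes 0.05 and -0.22. With the rat as a block, 2 of 4 endothelial genes passed in sham rats, higher on the right, against 1.8% of all probe sets. In SNX rats 1 of 4 did, also higher, against 0.319%. Without the block none of the 4 passed. The part of other cells and of fibre type in the differences of the 9 genes was not tested.

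**Figure D4:**
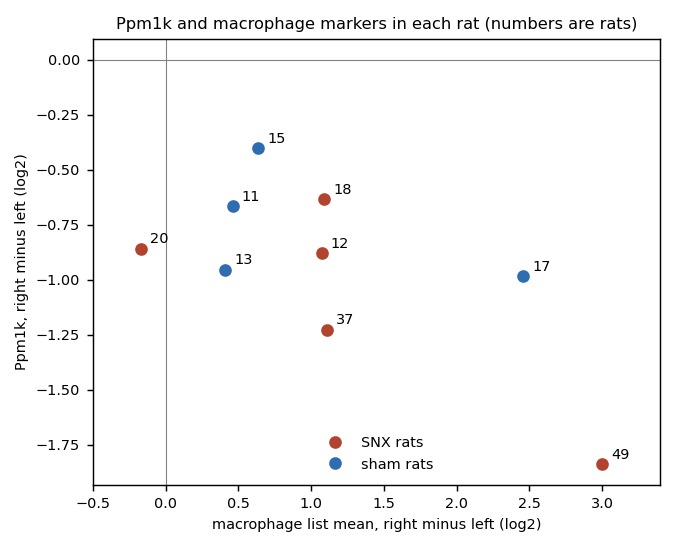
Right minus left log2 difference of Ppm1k (vertical axis) against that of the mean of 7 macrophage genes (horizontal axis), 1 point per rat, labelled by rat number. Rats 49 and 17 have the largest macrophage differences, and rat 20 has a Ppm1k difference of -0.86 with a macrophage difference of -0.17.

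Other genes of branched-chain amino acid breakdown, its transport and its regulation gave the setting. Of 28 listed, 26 were analysed here, and none passed the adjusted threshold in any comparison, with or without the rat as a block. At an unadjusted limma p under 0.05 there were 7 of 26 for the limbs of sham rats, against 12.3% of all probe sets, and 1 of 26 for SNX against sham, against 16.7%. In sham rats 21 of the 26 averaged less in right than in left limbs, with a median of -0.20, where 60.9% of all named genes did. In SNX against sham rats 21 of 26 were higher, with a median of 0.08, where 60.6% of all named genes were. None of the 26 had separate limb averages with SNX above sham, where 1.28% of all probe sets did. Comparisons share their arrays, so these counts are not independent of each other.

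Of the listed genes with the widest differences, Acadsb, the acyl-CoA dehydrogenase of the isoleucine branch, differed by -0.81 ± 0.64 between right and left limbs of sham rats and by 0.70 ± 0.43 between SNX and sham rats (SE). Klf15, a transcription factor that promotes amino acid breakdown in muscle, was lower on the right in all 9 rats, with mean differences of -0.80 in SNX rats and -0.65 in sham rats. Between SNX and sham rats it differed by 0.44 ± 0.23 (SE). Its limma adjusted p was 0.46 for the sham limbs and 0.333 for the operation, or 0.236 and 0.494 with the rat as a block. Ppargc1a, a coactivator of mitochondrial genes, had right minus left differences of 0.78 in SNX rats and 0.34 ± 0.43 (SE) in sham rats. Both were opposite in sign to those of Klf15. Bcat1, the cytosolic aminotransferase, and Slc7a5, a plasma membrane transporter of large amino acids, were dim, with means of 2.65 and 2.89, and their right minus left differences in sham rats of 1.62 ± 0.98 and 0.65 ± 0.45 (SE) were within the spread between rats. Bcat1 reached 7.25 on the right array of sham rat 17 and 5.93 on that of SNX rat 49, the arrays that stood apart. Its left limbs lay between 2.02 and 2.12. The right minus left difference of Slc7a5 was also largest within each operation in these rats, 1.48 in sham rat 17 and 2.31 in SNX rat 49. Mmut, which carries propionyl carbon into the citric acid cycle, differed by 0.37 between right limbs of SNX and sham rats, which did not overlap. It was the 1 gene of the 26 separate in this way, where 7.77% of all probe sets were. In left limbs the widest SNX minus sham differences were 0.56 for Acadsb, 0.51 for Klf15 and -0.36 for Ppargc1a, and in right limbs 0.84 for Acadsb and -0.76 for Bcat1. The difference of the ligation differences was -0.76 for Bcat1, 0.44 for Ppargc1a and 0.28 for Acadsb, each within its error. Hibch, the valine enzyme just ahead of Hibadh, was chosen after its values were seen: its sham right minus left difference was -0.26 ± 0.09, lower in 4 of 4 rats (SE, limma adjusted p = 0.235, or 0.0993 with the block).

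**Figure D5:**
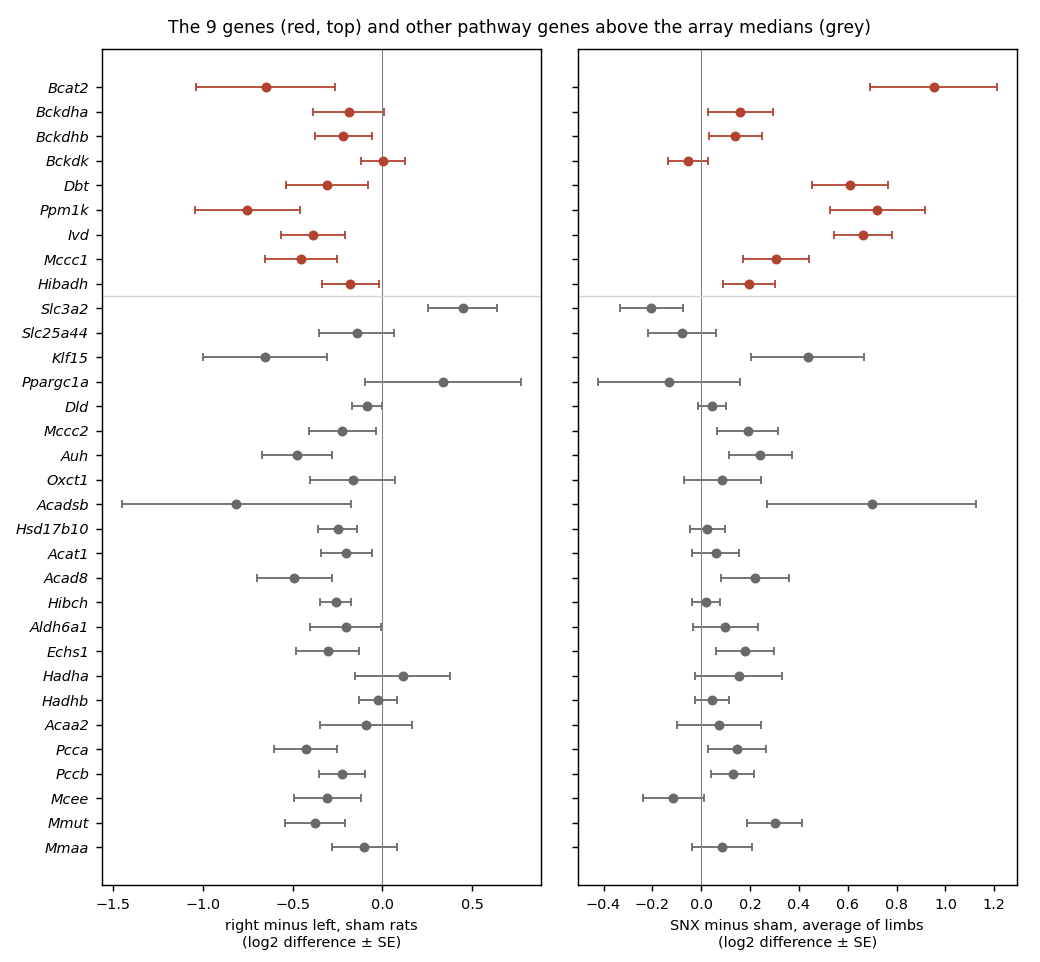
Log2 differences with SE for the 9 genes (red) and the other listed pathway genes with a mean above the array medians (grey), right minus left in sham rats on the left and SNX minus sham averaged over limbs on the right. The sham rats enter both panels. Bcat2, Dbt, Ppm1k and Ivd lie between 0.61 and 0.95 in the right panel, where most grey genes lie near 0. Among the grey genes Acadsb lies at 0.70, within that range, and Klf15 at 0.44. The remaining red genes run from -0.05 (Bckdk) to 0.31 (Mccc1).

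Across the 18 arrays the 9 genes ran partly together. The 36 pairs had Pearson correlations of -0.22 to 0.96 with a median of 0.73, and the closest pair was Bckdha with Hibadh. Ppm1k correlated at 0.92 with Bcat2, 0.91 with Mccc1, 0.91 with Dbt, 0.80 with Hibadh, 0.76 with Ivd, 0.75 with Bckdha, 0.74 with Bckdhb and 0.07 with Bckdk. Once group means were removed, Ppm1k with Bcat2 stood at 0.91 and with Ivd at 0.25. Of 7071 genes at or above the median level, those most like Ppm1k were Mettl7a (0.94), Selenbp1 (0.93), Tcea3 (0.93), Rnf217 (0.93) and Aldh4a1 (0.93), and only 7 were more like it than Bcat2 was. Arrays share 9 animals, 2 sides and 1 normalization, so these correlations describe this set of arrays.

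Some rats were high or low for most of the genes. Among SNX rats, rat 18 had the highest limb average for 7 of the 9 genes and rat 49 the lowest for 5. Among sham rats, rat 17 had the lowest for 7 and rat 15 the highest for 5. Bcat2 spread most among SNX right limbs, with an SD of 0.85 there, against 0.19 in sham right limbs. Hibadh, the brightest probe set, measured 12.33, 12.65, 12.46, 12.43 and 12.02 in right limbs of SNX rats 12, 18, 20, 37 and 49, against 12.51, 12.37, 12.41 and 11.71 in those of sham rats 11, 13, 15 and 17. In both operations the array that stood apart was the lowest one.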

How the data were processed

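RNA of muscle labelled soleus from both limbs of 9 rats was hybridised to 18 Affymetrix arrays, from 2 micrograms of total RNA each, per the labels' protocols. The authors deposited log2 values of 31099 probe sets. Per the submitters' processing notes, RMA, GCRMA and Partek were used, and the sources used here do not say which of them gave these values. These methods differ most for dim probe sets. The 57 control probe sets were left out, no filter on level was set, and precision is limited by the number of arrays. Symbols came from the platform annotation, updated to RefSeq gene names of GRCr8, which matched 20758 of 20826 probe sets with 1 gene. Several genes are listed for 436 probe sets and none for 9780, and these stayed unnamed.

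One mean per group was fitted with limma 3.58.1 in R 4.3.3 over all 18 arrays, with 14 residual and 1.02 prior degrees of freedom and two-sided p-values adjusted by Benjamini-Hochberg over 31042 probe sets at a threshold of 0.05. The unblocked fit treats the limbs of a rat as independent. The limbs come from the same animal, so duplicateCorrelation with the rat as a random block (consensus correlation 0.297) is given beside it. As a check, left and right arrays deviated together (correlation over 0.1) in 7 of 9 rats. No arrays were identical. Files were read with data.table (version 1.17.8). The fit was tested on simulated data. Alternatives were the block, a fit of only the arrays compared, other scalings, a filter on dim probe sets, eBayes with trend and robust, another main probe set, and rats left out.

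The 9 genes, the other pathway genes and the marker lists were chosen with earlier results of these data known. The rule for names took all 9 genes, the 3 other pathway genes with the widest difference per comparison and any past the threshold, and the 5 genes most correlated with Ppm1k. Listed genes without a matching symbol are not reported here.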

Additional observations from a re-analysis of the deposited data

Results flagged for a closer look

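Dixon's criterion was applied to 54 sets of values. These were the 9 genes in each of the 4 groups and their right minus left differences in each operation. A sample at one end was set against the gap to its neighbour, and 3 sets had a sample standing apart. Limb averages were not screened in this way. Chance alone flags about 1 in 20 such sets. Bckdha, the E1 alpha subunit, measured 9.24 in the right limb of sham rat 17, against 9.96 to 10.09 in the other sham right limbs. Mccc1, the leucine carboxylase subunit, measured 8.52 in the same limb, against 8.94 to 9.0 in the others. Bckdhb, the E1 beta subunit, measured 10.95 in the right limb of SNX rat 49, against 11.44 to 11.63 in the other SNX right limbs. These are the arrays that stood apart from the other 16 and had the highest macrophage means of their groups, 7.86 in sham rat 17 and 7.28 in SNX rat 49.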

How the results depend on the processing

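The count of the 9 genes past the threshold was 0 in all 5 comparisons and stayed 0 with the replicate block, as a random or a fixed term, with 2 exceptions for SNX against sham averaged over limbs. The count was 1 (Ivd, limma adjusted p = 0.0289) when only brighter probe sets were tested, which reduces the number of tests. It was also 1 (Ivd, 0.0381) without sham rat 11, so that leaving out rats in turn gave 0 to 1. Over all its alternatives the adjusted p of Ivd ran from 0.0289 to 0.475. In an alternative chosen after seeing the data, the replicate block with rats 17 and 49 left out, 1 other pathway gene passed for sham right against left (Hibch, -0.21, adjusted p = 0.0205), and the mean of limbs, 1 value per rat, gave an adjusted p of 0.467 for Ivd. The mean Ppm1k difference in SNX rats ran from -1.20 to -0.88.

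Directions turned only for differences near 0, and the cause was not tested. For Bckdk, sham right minus left was -0.0011 after quantile normalization, -0.014 with centred arrays and -0.052 to 0.11 with rats left out in turn. With rats left out in turn its right limb difference ran from -0.125 to 0.031 and its left limb difference from -0.157 to 0.0042. Without rats 17 and 49, with or without the block, its left limb difference was 0.033 and its averaged difference 0.012. In right limbs Bckdha ran from -0.110 (without sham rat 17) to 0.234, with -0.0087 without SNX rat 18, and Hibadh from -0.052 (without sham rat 17) to 0.219. The rat as a fixed term gives no value between operations, and a fit of only the arrays compared gives none for comparisons that use all 4 groups. With 4 and 5 rats a group, an averaged difference of a gene had a median SE of 0.13 log2 units in the unblocked fit. Smaller differences were not resolved. Much larger ones, such as 0.95 for Bcat2, did not pass the adjusted threshold in the main fit either.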
